A study of Homo sapiens with 6 samples.

Results

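The G1 cyclins, their kinases and the RB family were followed here in HCT-116, an established human colorectal carcinoma cell line. The 10 genes were taken by symbol from the deposited expression table, in which each of them has 1 row of its own, among 27918 genes and loci in all. They are the kinases CDK2, CDK4 and CDK6, the cyclins CCND3, CCNE1 and CCNE2, the inhibitor CDKN1B, the phosphatase CDC25A, and the pocket protein genes RB1 and RBL1. Cells of this 1 line were transfected with a GapmeR, a short antisense oligonucleotide that directs RNase H to a complementary RNA. The control GapmeR (GapNC) and the GapmeR against the long noncoding RNA CASC9 (GapC9) were each sequenced in 3 libraries, from poly(A) RNA. The labels do not say whether the libraries of a group came from separate cultures, so that p-values measure the spread between these libraries, which may be technical. The times given for harvest differ between parts of the study's text.

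In a dividing cell, D cyclins bind CDK4 or CDK6 and start to phosphorylate RB and its relatives, which hold E2F transcription factors inactive. Cyclin E with CDK2 completes this step, E2F is released, and genes for DNA synthesis are transcribed. CDC25A activates CDK2 by removing an inhibitory phosphate, whereas p27 (CDKN1B) and p21 (CDKN1A) bind and restrain the cyclin E kinase. In colorectal carcinoma this pathway lies downstream of growth factor and Wnt signaling.

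The targeted RNA was close to absent from all libraries. CASC9 had 0, 0.0108 and 0 FPKM under the GapNC label and 0.0528, 0.107 and 0 FPKM under the GapC9 label, in the order of replicates 1, 2 and 3, which is kept below. It lay under the filter, with no lower level under the GapC9 label, and every direction given below therefore rests on the library labels. By RT-qPCR, a separate measure, the paper places HCT-116 among the lines with more CASC9. It also reports that the GapmeR lowered CASC9 in this line. The values here neither show nor exclude that. FPKM scales the fragments of a gene by transcript length and library size. If the commonest step between low values is 1 fragment, 1 FPKM on a 1 kb transcript stands for 22.7 to 24.3 fragments, depending on the library. Of 7 colon epithelial markers, 6 were at or above 1 FPKM in all libraries and VIL1 was under 0.1 FPKM. Of 6 markers of other cell types, 5 were under 0.1 FPKM in all libraries, and COL1A1 was at 1.06 to 1.54 FPKM. GapNC replicate 1 stood apart, in that GC-rich genes were high there. Over 10117 genes, which are not independent replicates, GC content and a gene's deviation from its own mean had a Spearman correlation of 0.616 there. It was −0.336 and −0.376 in GapC9 replicates 2 and 3, and −0.104 to 0.0287 in the other libraries. The trend with GC content therefore differed in part between the groups.

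**Figure D1:**
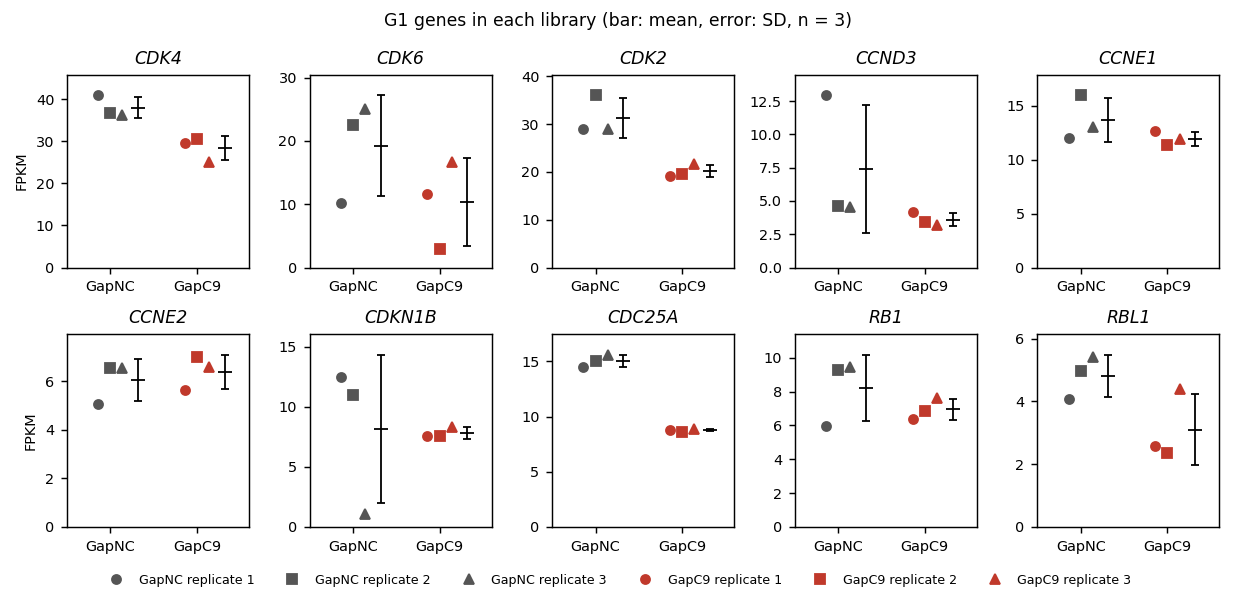
FPKM (linear axis from 0) of the 10 genes in each library, with gray symbols for GapNC and red symbols for GapC9, one symbol shape per replicate, and the mean with its SD (n = 3) beside them. CDC25A, CDK2, CDK4 and CCND3 did not overlap between the groups, while a single library stands away from the rest for CCND3 (GapNC replicate 1, 12.9 FPKM), CDKN1B (GapNC replicate 3, 1.06 FPKM) and CDK6 (GapC9 replicate 2, 2.95 FPKM).

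CDC25A and CDK2 fell in the libraries labelled GapC9, by 41.8% and 35.6% of mean FPKM, and were the only members past an adjusted p of 0.05. In bulk RNA, fewer cells of one cycle phase and less RNA per cell cannot be told apart. By flow cytometry, the paper reports arrest of GapC9-transfected HCT-116 cells in G2/M. Its relation to the values here was not tested. All 10 members passed the filter on low values, and 8 of them had a negative and 2 a positive log2 fold change. The median over the members was −0.52, against −0.08 over all 16028 rows tested. Of all rows, 6.99% passed an adjusted p of 0.05, 5.10% lower (817) and 1.89% higher (303), a split that became 427 lower and 483 higher after median scaling of the libraries. Without GapNC replicate 1, CDC25A was the 1 member past this threshold, with 241 rows higher and 573 lower. Without any 1 of the other libraries no member passed by limma, where 16 to 35 rows of the whole table were higher and 17 to 70 lower. At an unadjusted p under 0.05, 4 members were lower (CDC25A, CDK2, CDK4 and RBL1) and 0 higher, where 16.8% of all rows were lower and 9.09% higher. For 4 members, all lower, the GapNC and GapC9 values did not overlap (CDC25A, CDK2, CDK4 and CCND3), where 34.2% of all rows did not overlap, 21.6% lower and 12.6% higher. The study called genes at a fold change of 2 or more, or of 0.5 or less, with p under 0.05. Taken here as the ratio of mean FPKM with limma's unadjusted p, these thresholds were met by no member, against 6.42% of all rows, 4.32% lower and 2.10% higher. Fold changes are given throughout on log2(FPKM + 0.1), from limma fitted to all rows.

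CDC25A (ENSG00000164045, minus strand of chromosome 3, 48157146 to 48188402 in GRCh38) had the smallest p of the members. Its FPKM was 14.5, 14.995 and 15.6 under the GapNC label and 8.78, 8.64 and 8.83 under the GapC9 label. The 3 GapC9 values lay close together (SD 0.0951) and far below the lowest GapNC value. On the log2 scale the difference was −0.77 (standard error 0.09, limma adjusted p = 0.0166). Over the 6 fits without 1 library it stayed between −0.80 and −0.75, with an adjusted p of 0.0239 when GapNC replicate 1 was the one left out and of 0.0566 to 0.0859 for each of the rest. After correction for GC content it was −0.63 (adjusted p = 0.0134). No exon of an annotated gene on either strand overlaps the exons of CDC25A.

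CDC25A is itself a textbook E2F target, and the 250 bases before its RefSeq start are shown because they hold an E2F word. They lie at chr3:48188418-48188667 of GRCh38.p14 on the minus strand and are written 5′ to 3′, with the E2F word in capitals. The word runs from position −44 to −37, counted back from the start.
CDC25A: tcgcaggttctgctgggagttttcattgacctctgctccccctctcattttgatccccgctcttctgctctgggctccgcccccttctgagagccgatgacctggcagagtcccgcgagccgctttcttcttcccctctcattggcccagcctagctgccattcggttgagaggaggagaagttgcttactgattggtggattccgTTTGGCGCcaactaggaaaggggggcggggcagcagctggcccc

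CDK2 (ENSG00000123374, plus strand of chromosome 12, 55966769 to 55972784) encodes the kinase that CDC25A activates. It was measured at 28.9, 36.0 and 28.9 FPKM under the GapNC label and at 19.2, 19.7 and 21.6 FPKM under the GapC9 label. Every GapC9 value lay below every GapNC value, and GapNC replicate 2 was the highest. The fitted log2 difference was −0.63 (standard error 0.12, limma adjusted p = 0.0421). Leaving out any 1 library kept it between −0.68 and −0.52, but the adjusted p was then 0.0570 to 0.146 over the 6 fits. It was −0.48 after median scaling (adjusted p = 0.0790) and −0.52 after the GC correction (adjusted p = 0.0509). On the opposite strand, PMEL overlaps exons of CDK2 and was at 0.212 to 0.390 FPKM.

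The log2 ratio of CDC25A to CDK2 within a library was −1.05 ± 0.19 in GapNC and −1.19 ± 0.08 in GapC9 (SD, n = 3). The difference of −0.15 was within the spread between libraries (exact two-sided permutation p = 0.3, adjusted p = 0.6 over 6 pairs, where 0.1 is the smallest unadjusted p that 3 libraries against 3 allow).

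Of the kinases that pair with D cyclins, CDK4 was lower without overlap and CDK6 overlapped between the groups. CDK4 (ENSG00000135446, minus strand of chromosome 12, 57747727 to 57756013) was at 41.0, 36.8 and 36.3 FPKM under the GapNC label. It was at 29.7, 30.5 and 25.2 FPKM under the GapC9 label, below every GapNC value. Its log2 fold change was −0.42 (standard error 0.11, limma unadjusted p = 0.00969, adjusted p = 0.0823) and did not pass the adjustment. It was −0.28 after median scaling and −0.23 after the GC correction, with adjusted p of 0.171 and 0.136. TSPAN31 overlaps its exons on the opposite strand, at 1.18 to 1.79 FPKM.

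The 250 bases before the RefSeq start of CDK4 are shown because they hold the E-box CACGTG, a binding word of basic helix-loop-helix factors, at 3 places. They lie at chr12:57752311-57752560 of GRCh38.p14 on the minus strand, with the E-boxes in capitals, which begin at positions −216, −196 and −101 from the start. This start lies inside the span of the gene given above. The word reads the same on both strands. At least 1 such word was present in 6.32% of all 34943 upstream regions of this length.
CDK4: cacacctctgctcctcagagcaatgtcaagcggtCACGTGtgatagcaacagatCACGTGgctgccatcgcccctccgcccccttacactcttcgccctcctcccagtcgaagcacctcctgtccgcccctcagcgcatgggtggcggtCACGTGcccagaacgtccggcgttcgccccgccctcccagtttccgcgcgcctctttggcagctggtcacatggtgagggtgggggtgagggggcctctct

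CDK6 (ENSG00000105810, minus strand of chromosome 7, 92604921 to 92836594) is the close relative of CDK4. It was listed at 10.1, 22.6 and 25.0 FPKM under the GapNC label and at 11.6, 2.95 and 16.7 FPKM under the GapC9 label. The groups overlapped, with GapNC replicate 1 near GapC9 replicate 1 and GapC9 replicate 2 far below all others. The fitted difference was −1.10 on the log2 scale, with a standard error of 0.70 (limma adjusted p = 0.377), and was −0.36 without GapC9 replicate 2 (adjusted p = 0.687). The log2 ratio of CDK4 to CDK6 within a library was 1.08 ± 0.80 in GapNC and 1.76 ± 1.41 in GapC9 (SD, n = 3). Its difference of 0.68 had an exact two-sided permutation p of 0.6 (adjusted p = 0.72 over the 6 pairs) and was −0.11 without GapC9 replicate 2.

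Among the cyclins, no member passed the test. Cyclin D3, CCND3 (ENSG00000112576, minus strand of chromosome 6, 41934933 to 42050357), activates CDK4 and CDK6. Its FPKM was 12.9, 4.63 and 4.56 under the GapNC label and 4.16, 3.43 and 3.22 under the GapC9 label. The groups did not overlap, but GapNC replicate 1 was far above all other libraries. The ratio of mean FPKM was 0.488, inside the study's fold threshold, and the log2 fold change was −0.84 (standard error 0.42, limma unadjusted p = 0.0921, adjusted p = 0.267). Without GapNC replicate 1 the ratio was 0.784 and the log2 fold change −0.35 (adjusted p = 0.214). The transcripts listed for CCND3 had the highest GC content of the 10 members, 58.8%, and GapNC replicate 1 was the library in which GC-rich genes were high. After the GC correction the ratio was 0.603 and the log2 fold change −0.61 (adjusted p = 0.276).

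The most abundant D cyclin of these cells was CCND1, at 299, 284 and 279 FPKM under the GapNC label and 271, 274 and 257 FPKM under the GapC9 label. The libraries did not overlap, and the log2 difference, −0.10 with a standard error of 0.07 (limma adjusted p = 0.410), turned to 0.04 after median scaling and to 0.19 after the GC correction. CCND2, the other D cyclin, was under the filter, with at most 0.0246 FPKM in any library.

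The E cyclins, partners of CDK2, showed no difference beyond their spread. CCNE1 (ENSG00000105173, plus strand of chromosome 19, 29811898 to 29824308) was at 12.0, 16.0 and 13.1 FPKM under the GapNC label and at 12.6, 11.3 and 11.9 FPKM under the GapC9 label. The groups overlapped, and GapNC replicate 2 was the highest. The log2 fold change was −0.18 (standard error 0.13, limma adjusted p = 0.440). CCNE2 (ENSG00000175305, chromosome 8) was at 5.07, 6.53 and 6.57 FPKM under the GapNC label and at 5.63, 7.00 and 6.58 FPKM under the GapC9 label. Replicate 1 was the lowest of both groups. Its log2 fold change was 0.08 (standard error 0.15, limma adjusted p = 0.772), and turned to −0.01 after the GC correction and to −0.04 when GapNC replicate 1 was left out. INTS8, on the opposite strand, overlaps exons of CCNE2 and was at 8.38 to 10.3 FPKM, and whether reads were counted by strand is not given in the sources used here. The log2 ratio of CCNE1 to CCNE2 was 1.16 ± 0.16 in GapNC and 0.89 ± 0.24 in GapC9 (SD, n = 3), a difference of −0.27 (exact two-sided permutation p = 0.2, adjusted p = 0.6 over the 6 pairs).

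For the inhibitor p27, 1 library decided the direction. CDKN1B (ENSG00000111276, plus strand of chromosome 12, 12715058 to 12722371) was at 12.5, 10.99 and 1.06 FPKM under the GapNC label and at 7.55, 7.57 and 8.36 FPKM under the GapC9 label. GapNC replicate 3 was far below the other 5 libraries, whereas the GapC9 values lay close together and below the other 2 GapNC values. The ratio of mean FPKM was 0.958, while the log2 fold change was 0.54 (standard error 0.92, limma adjusted p = 0.751), so that the mean and the fitted value pointed in opposite directions. Without GapNC replicate 3 the log2 fold change turned to −0.58 (standard error 0.12, unadjusted p = 0.00553, adjusted p = 0.0845) and the ratio was 0.668. A sense intronic RNA inside the gene (AC008115.3) was at 0.826 FPKM in GapNC replicate 3 and at 0.207 to 0.636 FPKM in the others. The log2 ratio of CDK2 to CDKN1B was 1.21, 1.70 and 4.65 in GapNC and 1.34, 1.36 and 1.36 in GapC9 (exact two-sided permutation p = 0.4, adjusted p = 0.6 over the 6 pairs).

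By contrast, CDKN1A, the p21 gene and an inhibitor of the same family, rose in the libraries labelled GapC9. It was at 96.2, 83.1 and 86.0 FPKM under the GapNC label and at 149, 142 and 152 FPKM under the GapC9 label, without overlap. This was 0.74 on the log2 scale (standard error 0.09, limma adjusted p = 0.0175). It was 0.89 after median scaling and 1.0014 after the GC correction, with limma adjusted p of 0.0146 and 0.00548. After the GC correction the ratio of mean FPKM was 2.002, past the study's fold threshold. The adjusted p was 0.0215 when GapNC replicate 1 was left out and 0.0588 to 0.0825 for each of the rest. CDKN1C, the p57 gene and the remaining member of this family, was at 1.24 to 1.55 FPKM over the 6 libraries and was named after its values were seen. Its log2 difference was −0.03 (standard error 0.14, limma adjusted p = 0.929) and reached 0.29 under the alternatives.

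The pocket protein genes were all lower on average, and none passed the adjustment. RB1 (ENSG00000139687, plus strand of chromosome 13, 48303726 to 48599436) encodes the retinoblastoma protein. It was at 5.94, 9.26 and 9.44 FPKM under the GapNC label and at 6.40, 6.83 and 7.59 FPKM under the GapC9 label. GapNC replicate 1 was the lowest of all, and the other 2 GapNC libraries were above every GapC9 library. The difference of the groups was −0.21 on the log2 scale (standard error 0.20, limma adjusted p = 0.552). Leaving out GapNC replicate 1 gave −0.43 (unadjusted p = 0.0107, adjusted p = 0.0926), and −0.31 was obtained after the GC correction (unadjusted p = 0.0294, adjusted p = 0.119). The transcripts listed for RB1 had the lowest GC content of the members, 38.8%.

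RBL1 (ENSG00000080839, minus strand of chromosome 20, 36996349 to 37095995) encodes p107, a relative of RB that binds other members of the E2F family. It was at 4.06, 4.96 and 5.40 FPKM under the GapNC label and at 2.57, 2.34 and 4.39 FPKM under the GapC9 label. GapC9 replicate 3 lay above GapNC replicate 1, so that the groups overlapped. Its log2 fold change was −0.66 (standard error 0.26, limma unadjusted p = 0.0447, adjusted p = 0.182), and leaving out GapC9 replicate 3 gave −0.93 (adjusted p = 0.0987). RBL2, which encodes p130, was at 2.63, 3.10 and 3.40 FPKM against 2.21, 2.32 and 2.79 FPKM, with overlap. The difference was −0.31 on the log2 scale (standard error 0.15, limma adjusted p = 0.262). RBL2 passed in 1 alternative, the GC correction (log2 fold change −0.39, adjusted p = 0.0479). The log2 ratio of RB1 to RBL1 was 0.74 ± 0.18 in GapNC and 1.19 ± 0.37 in GapC9 (SD, n = 3), a difference of 0.45 (exact two-sided permutation p = 0.3, adjusted p = 0.6 over the 6 pairs).

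RBL1 is also transcribed under E2F control in textbook accounts, and its upstream region is shown because it holds 2 E2F words. It lies at chr20:37095998-37096247 of GRCh38.p14 on the minus strand, with the words in capitals, at positions −26 to −19 and −16 to −9 from the RefSeq start.
RBL1: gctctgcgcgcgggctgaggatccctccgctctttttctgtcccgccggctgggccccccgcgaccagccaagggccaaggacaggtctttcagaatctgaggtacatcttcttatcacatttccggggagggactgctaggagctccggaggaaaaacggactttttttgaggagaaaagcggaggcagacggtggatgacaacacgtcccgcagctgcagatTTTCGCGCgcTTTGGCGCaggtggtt

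The E2F words searched, on both strands, were TTTCCCGC, TTTCGCGC, TTTGCCGC and TTTGGCGC, none of which contains the E-box. Of the 8 members matched in the promoter table by symbol, CDC25A and RBL1 held such a word in the 250 bases before the start. Of all 34943 upstream regions, 2.77% held one. So did 6 of 35 matched genes of the G1/S pathway list and 7 of 13 of the E2F target list, both described below. For these lists every start given for a gene was searched. For RB1, CDK4, CDK6, CCND3, CCNE1 and CDKN1B the table's start lies inside the gene as GENCODE annotates it, so that promoters of longer transcripts were not searched. CDK2 and CCNE2 were not matched. A match is a description of the sequence, and E2F binding was not measured here.

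**Figure D2:**
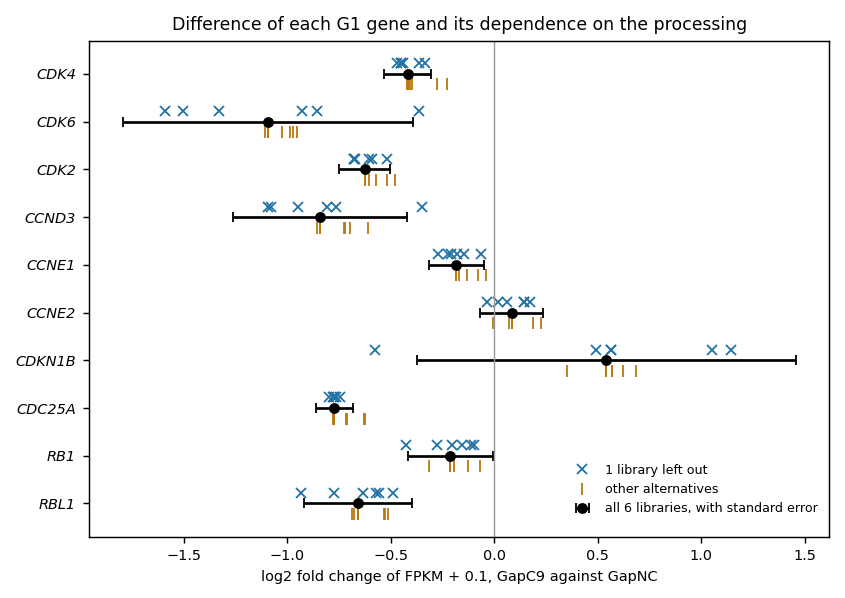
Log2 fold change of each gene (x axis, on FPKM + 0.1, GapC9 against GapNC), with the value and standard error from all 6 libraries in black, the 6 fits without 1 library as blue crosses, and the other alternatives as orange ticks. CDC25A stayed between −0.80 and −0.63 in every fit shown, while CDKN1B changed sign without GapNC replicate 3 and CDK6 moved to −0.36 without GapC9 replicate 2.

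Other genes of the G1/S pathway moved in both directions. Of a hand-written list of 41 genes, 40 were in the table and 39 loci were tested, 13 with a positive and 26 with a negative log2 fold change. The median was −0.10, against −0.08 over all rows. After median scaling it was 0.04, against 0.07 over all rows. At an adjusted p under 0.05, 1 was higher (CDKN1A) and 1 lower (E2F7), where 1.89% of all rows were higher and 5.10% lower. E2F7, an atypical E2F that represses E2F targets, was at 9.40, 10.4 and 11.3 FPKM under the GapNC label and at 6.56, 6.80 and 7.01 FPKM under the GapC9 label, without overlap. Its log2 fold change was −0.60 (standard error 0.11, limma adjusted p = 0.0360). The adjusted p was 0.0332 when GapNC replicate 1 was left out and 0.0839 to 0.131 for each of the rest. It was also above 0.05 without a filter (0.0510), after median scaling (0.0773), after quantile normalization (0.0702) and without the variance trend (0.0510). Before adjustment, p was under 0.05 for 4 loci of the list with higher and 7 with lower values, against 9.09% and 16.8% of all rows.

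By role, the E2F and DP factors, which bind DNA as pairs, had 2 positive and 8 negative log2 fold changes, from −0.60 to 0.10. Several small values changed sign under alternatives that keep all libraries. E2F4 reached 0.06, E2F6 0.07 and TFDP2 0.06, whereas E2F5, positive in the main fit, reached −0.04. These genes were picked out after their values were seen. Lower at an unadjusted p under 0.05 were E2F3 (−0.50), E2F7, E2F8 (−0.29) and TFDP1 (−0.59), of which E2F3, E2F8 and TFDP1 were picked out after their values were seen. E2F1, the classical activator held by RB, was at 14.2, 5.85 and 11.8 FPKM under the GapNC label and at 6.62, 6.28 and 10.5 FPKM under the GapC9 label, with overlap (log2 fold change −0.39, standard error 0.38, limma adjusted p = 0.559). The 3 genes of the CDK-activating kinase had log2 fold changes from −0.08 to 0.31, and none had an unadjusted p under 0.05. Of 7 ubiquitin ligase genes, which set the turnover of cyclins and inhibitors, CUL1 (0.24) had a positive and AMBRA1 (−0.42) a negative log2 fold change at an unadjusted p under 0.05. Both were picked out after their values were seen. Besides CDKN1A above and CCNA2 below, the other loci at that threshold were rows that the table joins with neighbouring genes. The row of SKP1 with PPP2CA and CDKL3 was higher. Lower were the rows of CDC25B with AP5S1 and of LIN37 with PSENEN. The values of such rows cannot be given to a single gene. The rows of MNAT1, CDK3 and RRM2 on these lists are joined in the same way.

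Cyclin A2, CCNA2, which takes over CDK2 in S phase, was at 25.2, 34.4 and 33.6 FPKM under the GapNC label and at 57.0, 57.8 and 35.2 FPKM under the GapC9 label. The groups did not overlap, but GapC9 replicate 3 lay just above GapNC replicate 2. Its log2 fold change was 0.66 (standard error 0.24, limma unadjusted p = 0.0307, adjusted p = 0.1497).

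Of 16 E2F target genes in 17 loci, 6 had a positive and 11 a negative log2 fold change. Their median was −0.16, against −0.08 over all rows, and −0.01 against 0.07 after median scaling. At an adjusted p under 0.05, 1 was lower and none higher by limma, where 5.10% and 1.89% of all rows were, and 1 was higher after median scaling, after the GC correction or without GapNC replicate 1. Before adjustment, where 16.8% of all rows were lower and 9.09% higher, p was under 0.05 for 2 genes with higher values, among them the replicative helicase subunit MCM3 (0.28). It was also under 0.05 for 5 with lower values, POLA1, the transcription factor MYBL2 (−0.65), thymidine kinase TK1 (−0.58), the helicase subunit MCM5 (−0.51) and the helicase loader CDC6 (−0.37), where POLA1 alone was named by rule and the rest after their values were seen. The gene past the adjustment was POLA1, the catalytic subunit of DNA polymerase alpha, which was also past the study's fold threshold (ratio 0.494). It was at 6.73, 7.42 and 7.63 FPKM under the GapNC label and at 3.27, 3.34 and 4.15 FPKM under the GapC9 label, without overlap. This was −1.004 on the log2 scale (standard error 0.13, limma adjusted p = 0.0210). The adjusted p was 0.0324 when GapNC replicate 1 was left out and 0.0647 to 0.0971 for each of the rest.

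**Figure D3:**
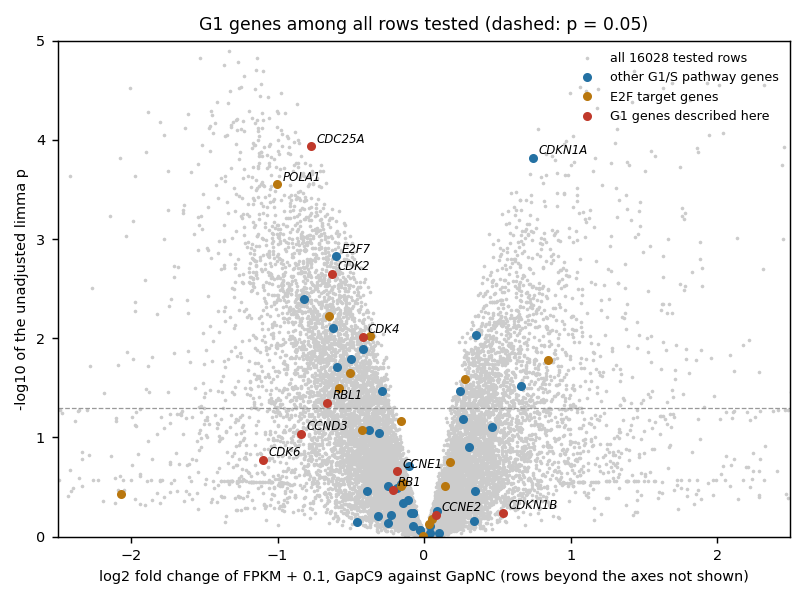
Log2 fold change (x axis, GapC9 against GapNC) against −log10 of the unadjusted limma p (y axis) for all 16028 rows tested in gray, with the 10 members in red, other G1/S pathway genes in blue and E2F target genes in orange, and 126 rows beyond the axes. CDC25A is the highest of the red points on the left and CDKN1A lies opposite on the right, while CDK6, CCND3, CCNE1, CCNE2, RB1 and CDKN1B lie under the dashed line.

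FPKM is scaled by length and so allows levels of different genes to be set side by side. In the libraries labelled GapNC the order of mean FPKM was CDK4 (38.0), CDK2 (31.3), CDK6 (19.3), CDC25A (15.03), CCNE1 (13.7), RB1 (8.21), CDKN1B (8.17), CCND3 (7.38), CCNE2 (6.06) and RBL1 (4.81). Between neighbours, the libraries of CDK4 and CDK2, of CDK2 and CDK6, and of CCNE1 and RB1 did not overlap, whereas all other neighbours overlapped. In the libraries labelled GapC9, CDK4 (28.5) and CDK2 (20.2) again led without overlap. RBL1 (3.10) was again the lowest there in mean, but its libraries overlapped those of CCND3 (3.60). CDC25A stood at 8.75 there, below CCNE1 (12.0) and CDK6 (10.4) in mean, and above CDKN1B (7.83) without overlap. The log2 ratio of CCND3 to CDK6 ranged from −2.43 to 0.35 in GapNC and from −2.34 to 0.21 in GapC9 (exact two-sided permutation p = 0.9, adjusted p = 0.9 over the 6 pairs).

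**Figure D4:**
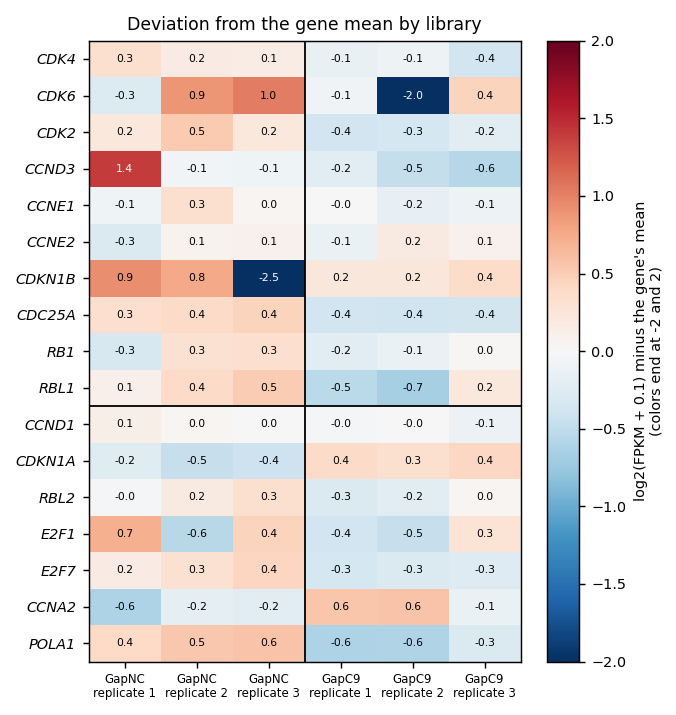
Deviation of log2(FPKM + 0.1) from the gene's mean over the 6 libraries (color and printed value), with the 10 members above the horizontal line and the 7 other named genes that were tested below it, and GapNC libraries left of the vertical line. CDC25A, CDK2, CDK4, E2F7, POLA1 and, by little, CCND1 are above their mean in all GapNC and below it in all GapC9 libraries. CDKN1A is the reverse, while CCND3, CDKN1B and CDK6 carry their largest deviation in 1 library.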

How the data were processed

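RNA-sequencing of HCT-116 cells was used, with 3 libraries labelled GapNC and 3 labelled GapC9. Groups and replicate numbers came from the sample titles, and 0 value columns were left unused. The authors mapped reads with HISAT, computed FPKM with StringTie and deposited 1 table of FPKM values without counts. The submitters' processing notes list HISAT2 2.0, StringTie 1.3.0 and Bowtie 0.12.2, with a mouse build (mm8) for these human samples, and strand use is not given in the sources used here. The study's own calls used a count model, which FPKM do not allow.

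No value was changed before use. A linear model was fitted with limma 3.58.1 in R 4.3.3, with variances moderated along a trend in mean level, to log2(FPKM + 0.1) of the 16028 rows with a mean of at least 0.1 FPKM, all 6 libraries in one fit, with Benjamini-Hochberg adjustment over all rows. Standard errors are limma's. Ratios of pairs within a library were compared by an exact permutation test (scipy 1.17.1). GC content, lengths and positions came from GENCODE 29 (GRCh38), through the Ensembl transcripts that the table lists, and upstream sequences from RefSeq (GRCh38.p14). The GC correction was a lowess of span 0.3 per library. The fit was tested on simulated data, with larger changes than those of the genes called here and without a trend with GC content. Changes of the size reported here were therefore not covered by it.

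The members and lists were chosen with earlier results of these data known. All 10 members are named, and of the lists those past an adjusted p of 0.05 or past the fold and unadjusted p thresholds, with CCND1, CCND2, RBL2, CDKN1A, E2F1 and CCNA2 named whatever their values. Genes picked out beyond this rule are marked as such. The values of 1 gene of the E2F target list are not reported here.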

Additional observations from a re-analysis of the deposited data

How the results depend on the processing

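At an adjusted p under 0.05, the members called (2, both lower) were 1 without a filter, after median scaling, after quantile normalization, without the variance trend and after the GC correction, which was CDC25A each time, and 0 to 1 with 1 library left out. The G1/S pathway genes called (2) were 1 without a filter, after median scaling, after quantile normalization and without the variance trend, 5 after the GC correction (1 higher, 4 lower), and 0 to 3 with 1 library left out. The E2F target genes called (1) were 2 after median scaling (1 higher, 1 lower) and after quantile normalization (both lower), 3 after the GC correction (1 higher, 2 lower), and 0 to 2 with 1 library left out, where the 2 without GapNC replicate 1 were 1 higher and 1 lower. These counts stand beside a background that also changed. Over the whole table, 1055 rows were higher and 1233 lower past the adjustment after the GC correction, against 303 and 817 without it. After quantile normalization 347 rows were higher and 516 lower. At the fold threshold the members called (0) stayed 0 in all fits with 1 library left out and in all other alternatives but the replicate block.

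Whether the replicate numbers of the titles pair the libraries is not settled by the values. Deviations from the group means correlated weakly between libraries of the same number, at 0.097, 0.0398 and 0.0243. Between different numbers, GapNC replicate 3 and GapC9 replicate 2 correlated at 0.0578, and the remaining pairs at −0.093 to −0.00445. With the replicate block, 0 rows of the whole table passed the adjustment in limma, though 328 higher and 672 lower met the fold threshold with an unadjusted p under 0.05, so that 0 members, 0 pathway genes and 0 E2F target genes were called, while 1 member, CCND3 (unadjusted p = 0.0484), was called at the fold threshold.

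Over the whole table, 1029 rows (67.3% lower) were called at the fold threshold, 496 under a filter at 1 FPKM (76.6% lower), and 932 to 1160 with 1 library left out. Of the calls 39.7% were lower after median scaling, 52.0% after quantile normalization and 47.5% after the GC correction. Median scaling moved the median of all rows by 0.14 on the log2 scale, and the median over the members was then −0.38, against 0.07 over all rows.

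Directions turned for CCNE2 (−0.01 after the GC correction, and −0.04 without GapNC replicate 1 to 0.17 without GapC9 replicate 1), CDKN1B (−0.58 without GapNC replicate 3 to 1.14 without GapNC replicate 1), CCND1 (0.04 after median scaling, 0.19 after the GC correction), the ratio of CDK4 to CDK6 (−0.11 without GapC9 replicate 2 to 1.26 without GapC9 replicate 3) and the ratio of CCND3 to CDK6 (−0.15 without GapNC replicate 2, −0.24 without GapNC replicate 3, −0.45 without GapC9 replicate 2, up to 1.15 without GapNC replicate 1). Only the members, the genes named by rule and the pairs of members were followed in this way. The cause of these changes was not tested. The table holds no counts, so that the counting error of a value is unknown.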
